A study of Mus musculus with 20 samples.

Results

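The expression of 10 genes of astrocytes, the star-shaped glial cells of the brain, was followed across 20 brain samples of mice with and without HIV-1 Tat and with and without methamphetamine (Meth). The genes were Gfap, Vim, Aqp4, Gja1, Aldh1l1, Aldoc, S100b, Sox9, Lcn2 and Serpina3n, chosen by name, and every probe whose accession belongs to one of them was taken. This gave 13 probes of the 55681 on the array, since Gfap had 3 probes and Aqp4 had 2, and 10 of the 20972 gene symbols that the array names. All 13 probes passed the filter on low signal, and each was well above background on all 20 arrays, except that Gfap probe A_55_P2157245 was so on 4 of the 5 Tat+/Meth arrays.

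All mice were male and of C57BL/6J background, carried a GFAP promoter-controlled Tet-binding protein, and received doxycycline at 100 mg/kg daily for 7 days. Tat− mice carried that construct alone, and Tat+ mice also carried the TRE promoter-Tat transgene, so that doxycycline switches on Tat in cells in which the GFAP promoter is active. Mice of each genotype were given 7 daily injections of saline (Sal) or of 2 mg/kg Meth, which made 4 groups of 5 mice. Without Tat these were Tat−/Sal and Tat−/Meth, and with Tat they were Tat+/Sal and Tat+/Meth. The labels and the methods differ on what followed. The labels give the left hemisphere, an age of 6 to 7 weeks and a harvest 24 h after the last injection, and the study's methods give the caudate putamen, an age of 3 to 5 months, and a harvest 1 h after a 1 mg/kg Meth challenge that all 4 groups received after 7 days without drug. By the methods, then, the saline groups had also received Meth once before harvest. Doxycycline, by the methods, was given alongside the 7 daily injections, so it had ended before the 7 days without drug. The transgene is driven through a GFAP promoter, and Gfap is also the gene that heads the list. How far that promoter shares the sequence of the mouse gene is not given in the sources used here. Tat itself was not measured here.

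Astrocytes take up glutamate and potassium, supply neurons with metabolites, and wrap blood vessels with end-feet that are rich in the water channel aquaporin-4 (Aqp4). They are joined into a network by gap junctions of connexin 43 (Gja1). In injury and inflammation they become reactive: the intermediate filament proteins GFAP and vimentin (Vim) increase, and secreted proteins such as lipocalin-2 (Lcn2) and the serine protease inhibitor Serpina3n appear. Aldh1l1, an enzyme of folate metabolism, Aldoc, the brain form of the glycolytic enzyme aldolase, the calcium-binding protein S100b and the transcription factor Sox9 are used as markers of the cell type. Several of these genes are also used by other cells, Vim by vessels and ependyma, S100b by oligodendrocytes, Sox9 by ependyma and Gja1 by meninges.

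The promoters of 3 genes are shown because these genes carry the results that follow: Gja1 had the difference with the smallest p, and Gfap and Serpina3n varied together from array to array. Each runs from 250 bases before to 50 bases after an annotated start in RefSeq, build GRCm38.p6, and is written 5′ to 3′ on the strand of the gene. Gfap lies at chr11:102897151-102897450 on the minus strand, Gja1 at chr10:56377050-56377349 on the plus strand and Serpina3n at chr12:104406458-104406757 on the plus strand. Capitals mark a match, on either strand, to the letters TTCNNNGAA, which STAT factors bind, or to TGANTCA, the AP-1 site. TATAAA was also searched, and no 2 of the matches overlapped.
Gfap: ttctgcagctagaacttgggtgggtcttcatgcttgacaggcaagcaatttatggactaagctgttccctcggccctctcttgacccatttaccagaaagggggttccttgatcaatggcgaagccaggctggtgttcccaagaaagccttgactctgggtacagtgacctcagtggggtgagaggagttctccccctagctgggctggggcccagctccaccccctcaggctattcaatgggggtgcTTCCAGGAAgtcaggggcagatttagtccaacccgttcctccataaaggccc
Gja1: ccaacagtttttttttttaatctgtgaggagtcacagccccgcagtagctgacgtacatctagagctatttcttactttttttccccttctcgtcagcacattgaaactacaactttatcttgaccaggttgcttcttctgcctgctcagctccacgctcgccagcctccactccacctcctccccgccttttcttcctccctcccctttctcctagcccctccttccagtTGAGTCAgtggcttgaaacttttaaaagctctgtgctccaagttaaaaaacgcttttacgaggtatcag
Serpina3n: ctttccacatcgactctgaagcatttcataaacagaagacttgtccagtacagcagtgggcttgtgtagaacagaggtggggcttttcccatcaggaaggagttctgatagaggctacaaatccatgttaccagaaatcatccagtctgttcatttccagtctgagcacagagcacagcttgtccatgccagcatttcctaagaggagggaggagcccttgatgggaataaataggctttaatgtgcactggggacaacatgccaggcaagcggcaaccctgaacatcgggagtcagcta
The Gfap window held 1 STAT match, which begins 2 bases upstream of the annotated start and runs across it, and the Gja1 window held 1 AP-1 match, which begins 19 bases upstream. The Serpina3n window held none of the 3 motifs. Of 32851 promoters of the same length, 8.3% held the STAT letters, 7.81% the AP-1 letters and 13.6% TATAAA, so neither match is rare. The promoter fragment inside the transgene is not given in the sources used here.

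Each array measured 1 mouse in 1 colour on the same Agilent design. Values are log2 of the processed signal, scaled so that every array has the same 75th percentile, and a difference of 1 on this scale is a doubling of signal. A gene was past the test when limma, fitted to 31516 probes over all 20 arrays, gave an adjusted p under 0.05, and a gene with several probes was counted by its brightest one. The arrays lay on 3 slides that were not balanced over the groups. Slide 1 held the 5 Tat−/Meth arrays and nothing else, slide 2 the 5 Tat−/Sal arrays with Tat+/Meth replicates 1 to 3, and slide 3 the 5 Tat+/Sal arrays with Tat+/Meth replicates 4 and 5. Control spots in the bright corner read 14.66 to 15.06 (unscaled log2) on slide 1 and 16.80 to 17.42 on slides 2 and 3. Any comparison of Tat−/Meth with another group is thus also a comparison of slide 1 with another slide, and Meth and slide cannot be told apart in it. Tat−/Meth replicate 5 also stood apart, with 70.8% of probes well above background against 56.4% to 60.2% on the other arrays of its group. As for tissue, all 9 markers of striatal neurons were well above background on every array with a mean level of 15.71 to 16.04. Of 5 tested cortical markers 3 were so. The mean level of these 5 had a median of 8.57 in Tat−/Sal, 7.85 in Tat−/Meth, 7.74 in Tat+/Sal and 7.66 in Tat+/Meth. The groups overlapped in it, and whether the cortical share of the tissue differed between groups was not tested. In these bulk samples, fewer astrocytes and less RNA per astrocyte cannot be told apart.

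Astrocyte genes differed between Tat−/Meth and Tat−/Sal mice. Of the 10 genes, 5 were higher and 1 was lower in Tat−/Meth, read beside 34.3% of all 15102 genes tested that were higher and 15.1% that were lower. The 5 were Gja1, Serpina3n, Sox9, S100b and Aldh1l1, and the lower one was Aldoc. At that background a count of 6 in 10, against 49.3% past the test in either direction, sets the astrocyte genes little apart from the rest. By single probes, 9 of 13 passed, beside 50.3% of all probes. None of the 10 passed the test with a change above 2-fold, which 6.85% of all genes did.

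**Figure D1:**
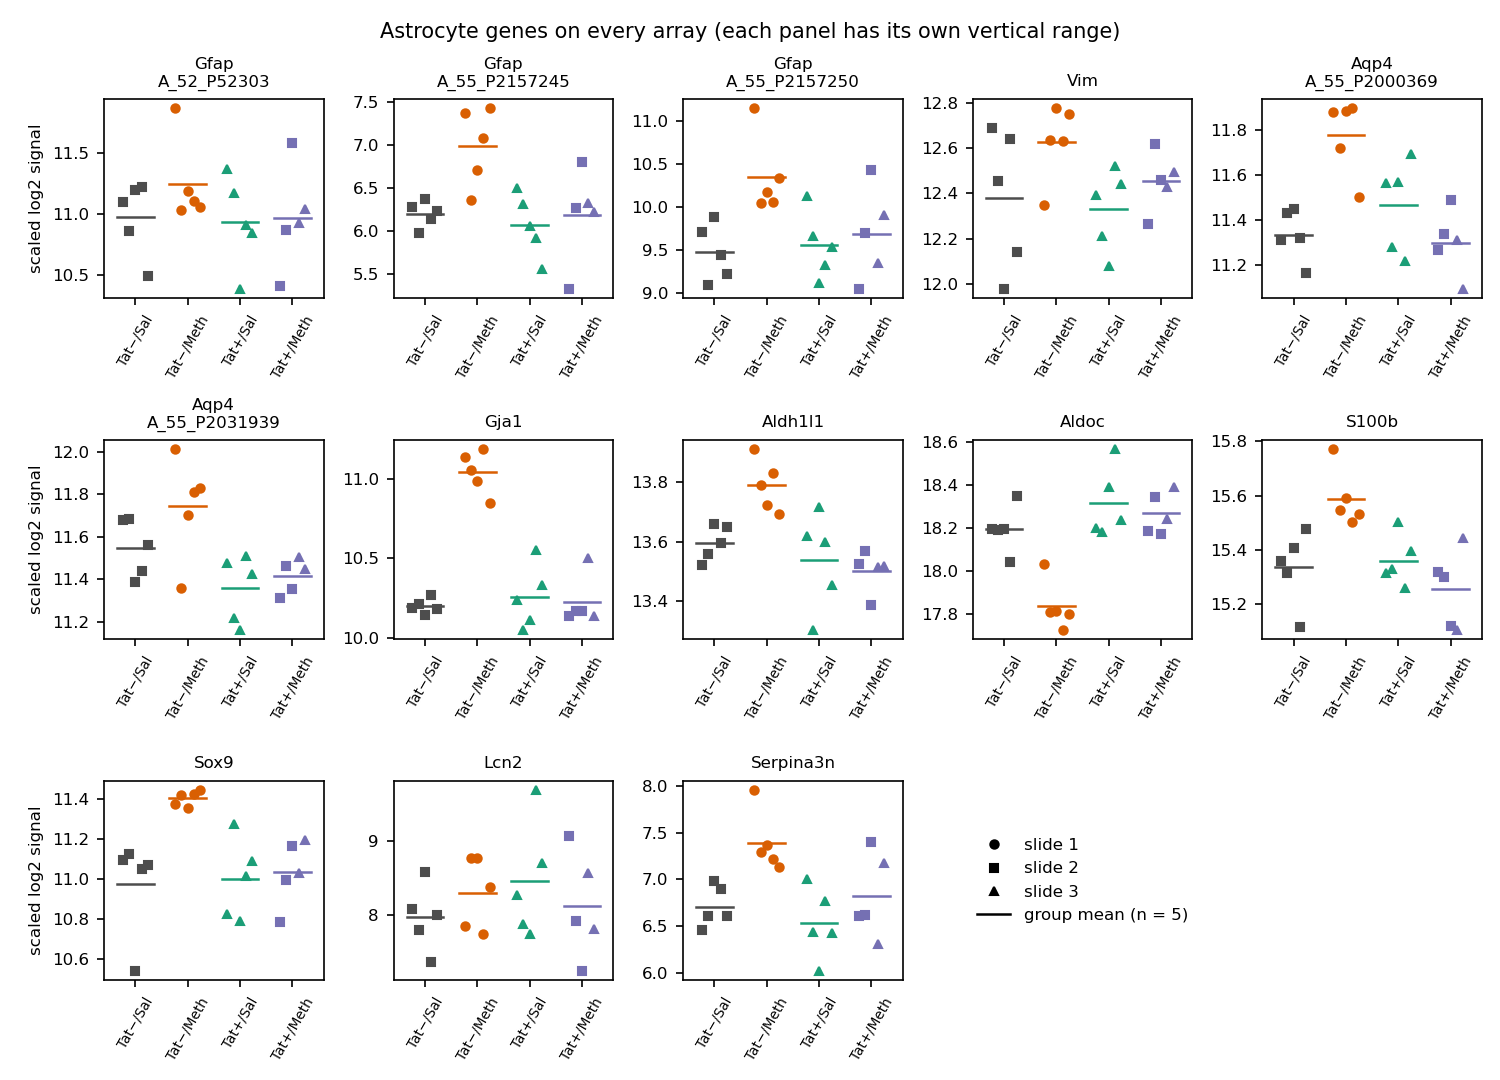
Scaled log2 signal (vertical axis, a separate range in each panel) of the 13 probes of the 10 astrocyte genes in the 4 groups (horizontal axis). Each point is 1 array, its shape gives the slide, and the line is the mean of 5 arrays. Gja1 read 10.85 to 11.19 in Tat−/Meth, all on slide 1, and 10.05 to 10.55 on the other 15 arrays, while Lcn2 overlapped in all 4 groups.

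Gja1, the connexin of the astrocyte network, showed the clearest difference. Its probe, averaged over 10 spots on each array, read 10.19, 10.21, 10.14, 10.27 and 10.18 in the Tat−/Sal mice. It read 11.14, 11.05, 10.99, 11.19 and 10.85 in the Tat−/Meth mice. The lowest Tat−/Meth mouse was above the highest Tat−/Sal mouse, and the difference of 0.84 ± 0.09 (SE) was 1.79-fold, with a 95% interval of 0.65 to 1.04 on the log2 scale and an adjusted p of 6.1e-07. Of the 10 genes, Gja1 alone kept its call both under all 14 other ways of processing or testing the values of single genes and without any 1 of the 20 arrays.

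Aqp4, the water channel of the end-feet, gave a divided answer. Probe A_55_P2000369 read 11.31, 11.43, 11.45, 11.32 and 11.16 in Tat−/Sal and 11.88, 11.72, 11.88, 11.90 and 11.50 in Tat−/Meth, without overlap, a difference of 0.44 ± 0.10 with an adjusted p of 0.0015. Probe A_55_P2031939, which is assigned to the same transcript and is the one by which the gene was counted, differed by 0.19 ± 0.10 with an adjusted p of 0.13, and its groups overlapped because Tat−/Meth replicate 2 read 11.36. Within groups the probes hardly varied together, at a correlation of 0.06 over 20 arrays once the mean of each group on each slide was removed. The level of Aqp4 therefore depends on which probe is read.

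Gfap, the filament protein by which reactive astrocytes are recognised, also depended on the probe. The brightest probe, A_52_P52303, read 11.10, 10.87, 11.20, 11.22 and 10.49 in Tat−/Sal and 11.87, 11.03, 11.19, 11.11 and 11.06 in Tat−/Meth. The groups overlapped, and the difference of 0.28 ± 0.22 did not pass the test, with an adjusted p of 0.31. Probe A_55_P2157250 read 9.71, 9.10, 9.89, 9.44 and 9.22 in Tat−/Sal and 11.15, 10.05, 10.18, 10.06 and 10.33 in Tat−/Meth. There every Tat−/Meth mouse was above every Tat−/Sal mouse, and the difference of 0.88 ± 0.26 passed with an adjusted p of 0.0088. The dim probe A_55_P2157245 differed by 0.79 ± 0.24 with an adjusted p of 0.011, with 4 of 5 Tat−/Meth mice above all Tat−/Sal mice. The 3 probes varied together within groups, with correlations of 0.63 to 0.90 over 20 arrays. The order of mice still differed between them: Tat−/Meth replicate 1 was highest with A_52_P52303 and A_55_P2157250, and replicate 5 with A_55_P2157245. Probe A_55_P2157250 is assigned to a different RefSeq transcript of Gfap from the other 2, and which part of each transcript a probe covers was not given. Vim, the partner of GFAP in the filament, read 11.98 to 12.69 in Tat−/Sal and 12.35 to 12.78 in Tat−/Meth, and its difference of 0.25 ± 0.13 did not pass, with an adjusted p of 0.12.

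Of the secreted proteins of reactive astrocytes, Serpina3n passed the test and Lcn2 did not, and the difference between them was not tested. Serpina3n read 6.46, 6.61, 6.99, 6.89 and 6.61 in Tat−/Sal and 7.96, 7.30, 7.37, 7.22 and 7.14 in Tat−/Meth. The groups did not overlap, and the difference was 0.69 ± 0.21, or 1.61-fold, with an adjusted p of 0.012. Serpina3n belongs to a cluster of closely related genes, and whether its probe also reads the others was not tested. Lcn2 was the most variable gene of the 10 from mouse to mouse, at 7.37 to 8.59 in Tat−/Sal and 7.75 to 8.78 in Tat−/Meth. Its difference of 0.33 ± 0.37 had a 95% interval of −0.44 to 1.11 and an adjusted p of 0.47, so the arrays set only a wide bound on it.

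The markers of the cell type showed small differences in both directions. Sox9, averaged over 10 spots, read 11.09, 11.13, 10.54, 11.05 and 11.07 in Tat−/Sal and 11.37, 11.42, 11.35, 11.43 and 11.44 in Tat−/Meth, a difference of 0.43 ± 0.11 with an adjusted p of 0.0039. S100b read 15.12 to 15.48 in Tat−/Sal and 15.50 to 15.77 in Tat−/Meth, a difference of 0.25 ± 0.08 with an adjusted p of 0.014. Aldh1l1 read 13.52 to 13.66 in Tat−/Sal and 13.69 to 13.91 in Tat−/Meth, a difference of 0.19 ± 0.07 with an adjusted p of 0.028. Aldoc went the other way: it read 18.20, 18.19, 18.20, 18.04 and 18.35 in Tat−/Sal and 18.03, 17.81, 17.81, 17.72 and 17.80 in Tat−/Meth, a difference of −0.36 ± 0.08 with an adjusted p of 0.0013. In each of these 4 genes the Tat−/Meth mice did not overlap the Tat−/Sal mice. Non-overlap itself was common in this comparison: 6 of the 10 astrocyte genes showed it, beside 36.2% of all genes.

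**Figure D2:**
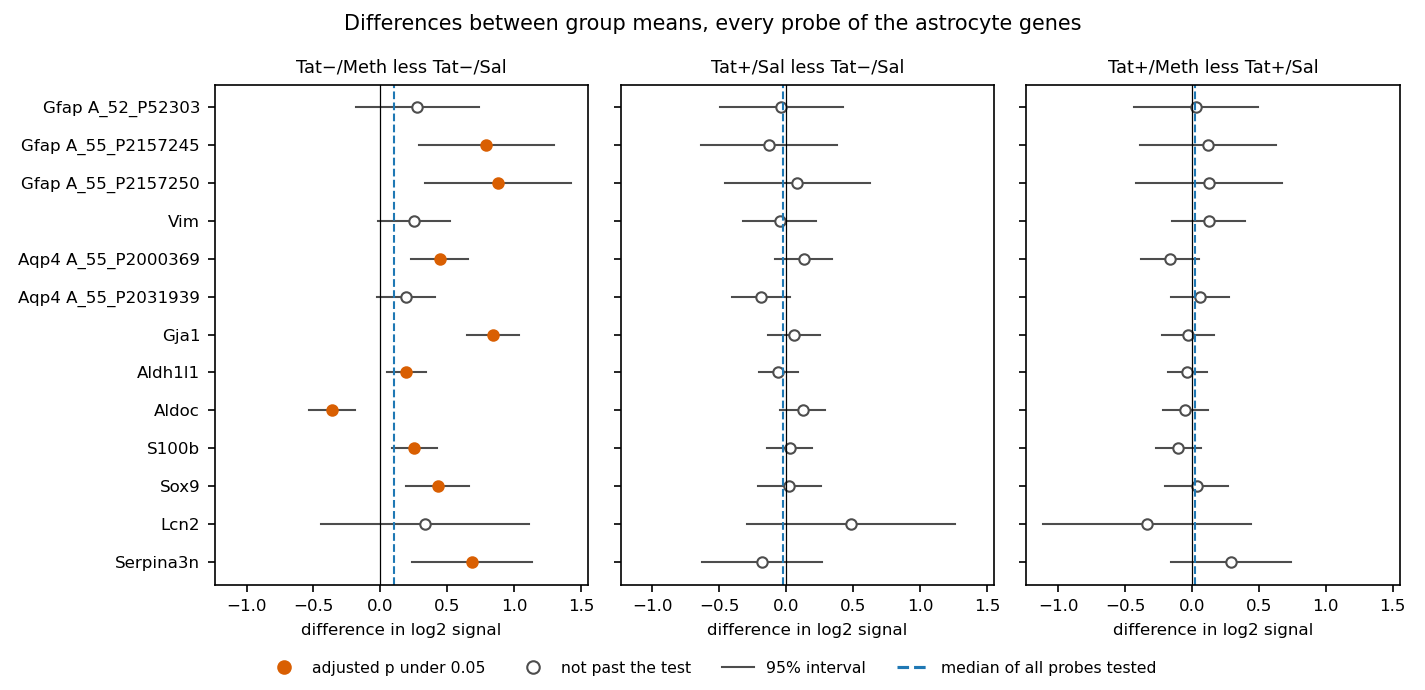
Difference in log2 signal (horizontal axis) between group means for the 13 probes of the astrocyte genes, with 95% intervals, in 3 comparisons of 5 with 5 arrays. Filled points had an adjusted p under 0.05, and the dashed line is the median difference of all probes tested. Filled points are found only in the first panel, at 9 of 13 probes.

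The size of these differences depends on what they are set against. The median difference over all probes tested was 0.10 between Tat−/Meth and Tat−/Sal after scaling to the 75th percentile, 0.22 after scaling to the median, and −0.33 without scaling. Each of these scalings moves all probes of an array by the same amount, so the distance of a probe from that median hardly depends on which is used. After scaling to the 75th percentile this distance was 0.74 for Gja1, 0.59 for Serpina3n, 0.78 for Gfap probe A_55_P2157250 and 0.09 for Aldh1l1. Without scaling Aldh1l1, at −0.23, and S100b, at −0.17, were negative, as were the brightest Gfap probe, Vim, Aqp4 probe A_55_P2031939 and Lcn2, which had not passed the test. The shift also followed brightness. Among probes with a mean level of 10 to 12, where Gja1, Sox9 and Aqp4 lie, the median difference was 0.15, among those of 14 to 16 it was 0.06, and among the 46 probes of 18 or above it was −0.45. Aldoc, at a mean level of 18 or above, fell by 0.36 on the log2 scale, which is less than the median fall of those 46 probes. With quantile normalization, which gives every array the same distribution, the difference of Aldoc was −0.03, with an adjusted p of 0.74. No spot of Aldoc was called saturated.

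**Figure D3:**
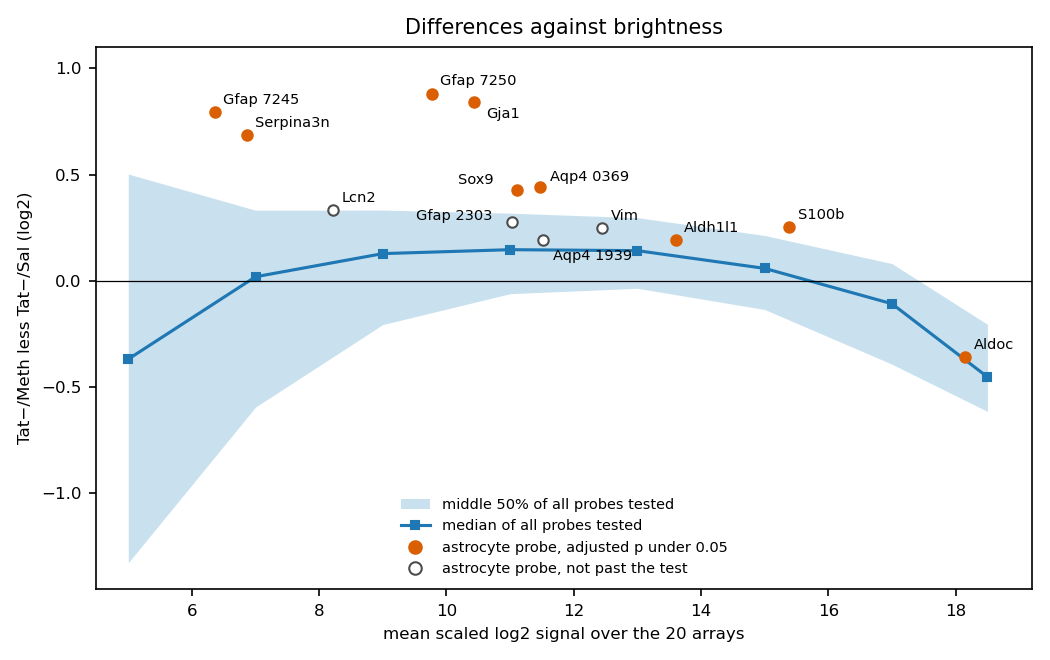
Difference in log2 signal between Tat−/Meth and Tat−/Sal (vertical axis) against the mean scaled log2 signal of a probe over 20 arrays (horizontal axis). The line and band give the median and the middle 50% of all probes tested in bins of brightness, and the points are the astrocyte probes, those of Gfap and Aqp4 marked with the end of the probe name. Aldoc lies beside the line at the bright end, where the median is −0.45, while Gja1, Serpina3n, Sox9, S100b, Aqp4 probe A_55_P2000369 and 2 of the Gfap probes lie above the band.

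Other genes of astrocytes were then counted in the same comparison. Of 28 further astrocyte genes, all tested, 12 were higher and 2 lower in the Meth group of Tat− mice than in its saline group, with a median difference of 0.18 beside 0.14 over all 15102 genes. The shares of all genes, 34.3% higher and 15.1% lower, are the background for this count and for those of the lists that follow, and the further astrocyte genes lay near it. Mt3, a metallothionein that binds zinc, differed by 1.05 ± 0.11 (adjusted p 2.3e-07), Fabp7, a fatty acid-binding protein, by 0.67 ± 0.11 (adjusted p 7.0e-05), and Slc25a18, a mitochondrial glutamate carrier, by 0.54 ± 0.18 (adjusted p 0.016). The lower ones were Cst3, which encodes cystatin C, at −0.47 ± 0.07, itself at a level of 18.07 in Tat−/Sal, and the sodium pump subunit Atp1b2 at −0.25 ± 0.08. Among genes of end-feet and coupling, 6 of the 7 reported were higher. Hepacam, an adhesion protein, was 0.61 ± 0.15 higher, and the potassium channel Kcnj10 was 0.47 ± 0.10 higher, with adjusted p of 0.0026 and 0.00064.

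Genes of astrocyte reactivity were read in the groups under which they are usually listed, again beside 34.3% of all genes higher and 15.1% lower. Gfap, Vim, Lcn2 and Serpina3n also belong to the pan-reactive group, but they are given above and were not counted again here. Of 7 tested pan-reactive genes 2 were higher, the oncostatin M receptor Osmr (0.48 ± 0.12) and ceruloplasmin, Cp (0.30 ± 0.10). Of 10 tested A1 genes, the set described after inflammatory stimulation, 1 was higher and 1 lower: Serping1, the C1 inhibitor, at 0.48 ± 0.12 and the interferon-induced GTPase Iigp1 at −1.57 ± 0.15 (adjusted p 7.2e-08). Of 8 tested A2 genes, the set described after ischemia, 5 were higher and none lower, among them B3gnt5 (1.25 ± 0.36), Cd109 (0.92 ± 0.26) and Emp1 (0.69 ± 0.19). The A2 list held 12 genes, and 6 of the 8 tested were well above background on every array. The filter on low signal asked for a high enough mean in only 1 group, so a dim gene could enter through the group where it was high. Of 4 tested genes in the list of filament partners, nestin, Nes (0.54 ± 0.11), was higher and the linker Plec was lower (−0.28 ± 0.08). Lmnb1 (0.74 ± 0.21), also in that list and higher, is a lamin of the nucleus and not a partner in the GFAP filament. Of 15 genes of reactivity signalling, 7 were higher and 1 lower. The shared cytokine receptor subunit Il6st (0.48 ± 0.07), its transcription factor Stat3 (0.47 ± 0.12) and the feedback inhibitor Socs3 (0.46 ± 0.17) were higher, with adjusted p of 2.6e-05, 0.0040 and 0.035, and Nfkb1 was lower (−0.61 ± 0.09).

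**Figure D4:**
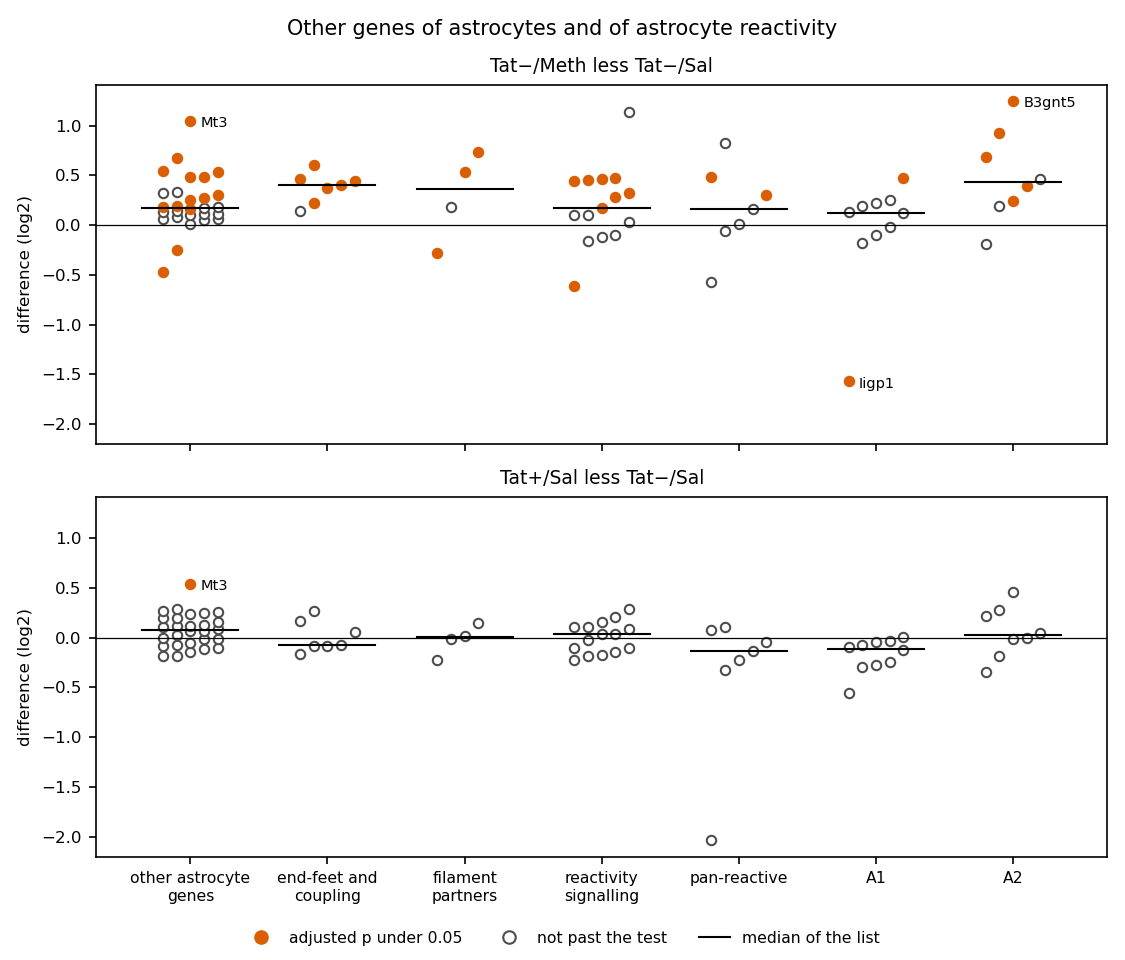
Differences in log2 signal (vertical axis) of the tested genes of 7 lists of astrocyte genes (horizontal axis) between Tat−/Meth and Tat−/Sal (upper panel) and between Tat+/Sal and Tat−/Sal (lower panel). Each point is the brightest probe of 1 gene, filled where the adjusted p was under 0.05, and the line is the median of the list. The upper panel holds 35 filled points above 0 and 5 below, the lower panel only Mt3.

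Markers of other cells also passed the test in this comparison. In the higher direction each list lay below the 34.3% of all genes. In the lower direction several lists lay above the 15.1% of all genes, each on only 1 or 2 genes. Of 9 tested microglial markers 2 were higher and 2 lower, of 8 oligodendrocyte markers 1 was higher, of 9 ependymal and choroid plexus markers 2 were higher, of 9 vessel markers 1 was higher and 2 lower, and of 9 striatal neuron markers 2 were lower. Of 5 tested cortical markers and of 6 general neuronal markers, 1 was higher and 1 lower in each, and none of 4 tested red blood cell genes passed. Vim, S100b and Sox9 are also used by ependyma. All 9 ependymal and choroid plexus markers had a positive difference, from 0.22 to 0.73. Their median difference was 0.36, beside 0.26 for the 10 astrocyte genes and 0.14 over all genes. The mean level of these markers was 9.59 to 10.58 in Tat−/Sal and 10.01 to 10.87 in Tat−/Meth. Their part in the differences of the astrocyte genes was not tested.

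With Tat alone, in mice given saline, no difference of the astrocyte genes was detected. None of the 10 genes and none of the 13 probes passed the test between Tat+/Sal and Tat−/Sal, with limma or with the methods' t-test, and none had an unadjusted p under 0.05. The background here was 0.669% of all genes and 0.708% of all probes. The differences ran from −0.19 (Aqp4 probe A_55_P2031939) to 0.49 (Lcn2). Gfap read 11.38, 11.18, 10.39, 10.91 and 10.85 with its brightest probe in Tat+/Sal, so the mice overlapped those of Tat−/Sal, and the difference of −0.04 had a 95% interval of −0.50 to 0.42. Gja1 read 10.24, 10.05, 10.11, 10.55 and 10.33, a difference of 0.06 with an interval of −0.14 to 0.25. Serpina3n read 7.01, 6.44, 6.02, 6.77 and 6.42, a difference of −0.18 with an interval of −0.63 to 0.27. Lcn2 read 8.27, 7.88, 7.75, 9.68 and 8.70, and its difference of 0.49 had the widest interval, −0.29 to 1.26. The intervals of the 13 probes lay within −0.64 and 1.26, and for 12 of them, all but Lcn2, a doubling lay outside. Aldh1l1, Aldoc, S100b and Sox9 had intervals within −0.21 and 0.29. These groups also lay on different slides, 2 and 3, and with slide as a block, estimated through the Tat+/Meth arrays on both, the differences were −0.29 to 0.37 and none passed.

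Among the other lists 1 gene passed in this comparison. Mt3 read 13.12 to 13.36 in Tat−/Sal and 13.42 to 14.08 in Tat+/Sal, a difference of 0.54 ± 0.11 with an adjusted p of 0.039. It passed without 13 of the 20 arrays in turn and not without the other 7, where the adjusted p reached 0.14. The call was also lost under 8 of the other settings, among them median scaling, normexp background correction (adjusted p 0.15) and the methods' t-test after adjustment (0.12). With slide as a block the difference was 0.32, with an unadjusted p of 0.0997. Mt3 was lowest in Tat−/Sal and did not overlap it in any of the other 3 groups, at 14.05 to 14.39 in Tat−/Meth and 13.46 to 13.89 in Tat+/Meth. The difference between Tat+/Meth and Tat−/Sal, 0.38 ± 0.11, did not pass, with an adjusted p of 0.78. Iigp1, at −0.56 ± 0.15, and the chloride channel Clcn2, at 0.27 ± 0.07, had adjusted p of 0.075 and 0.074.

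With Meth in Tat+ mice, no difference of the astrocyte genes was detected either. Between Tat+/Meth and Tat+/Sal none of the 10 genes passed with limma or with the methods' t-test, none had an unadjusted p under 0.05 in limma, and 0% of all genes passed, although 3624 of the 31516 probes had an unadjusted p under 0.05. The differences ran from −0.33 (Lcn2) to 0.29 (Serpina3n). Gja1 read 10.14, 10.17, 10.17, 10.50 and 10.14 in Tat+/Meth, a difference of −0.03 with an interval of −0.23 to 0.16. Gfap read 10.42, 10.87, 11.59, 10.93 and 11.05 with its brightest probe, a difference of 0.03 with an interval of −0.43 to 0.49. On slide 3 alone, where both groups were present, the differences of the 13 probes were −0.27 to 0.21, and none passed. Between Tat+/Meth and Tat−/Sal none of the 10 genes passed in limma and none had an unadjusted p under 0.05, beside 0% of all genes past the test and 1989 probes with an unadjusted p under 0.05. The differences were −0.13 to 0.21. On slide 2 alone, which held all Tat−/Sal arrays and 3 of Tat+/Meth, they were −0.17 to 0.25. By the methods' t-test without adjustment, 1 gene, Aldh1l1, was under 0.05 here, with a difference of −0.09 and a p of 0.048. The Tat+/Meth arrays of slides 2 and 3 differed from each other by −0.16 to 0.16 over the 13 probes.

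Tat+/Meth and Tat−/Meth, which share the drug and differ in Tat, differed in 7 of the 10 genes, beside 53.4% of all genes. In Tat+/Meth 6 were lower and 1 was higher, beside 37.7% of all genes lower and 15.7% higher. Gja1 differed by −0.82 ± 0.09 (adjusted p 8.2e-07), with every Tat+/Meth mouse under every Tat−/Meth mouse. Both Aqp4 probes passed here, at −0.48 ± 0.10 and −0.33 ± 0.10, with adjusted p of 0.00073 and 0.013. Serpina3n differed by −0.57 ± 0.21, Sox9 by −0.37 ± 0.11, S100b by −0.33 ± 0.08 and Aldh1l1 by −0.29 ± 0.07. Aldoc was 0.43 ± 0.08 higher. Gfap differed by −0.28 ± 0.22 with its brightest probe (adjusted p 0.29), by −0.80 ± 0.24 with A_55_P2157245 (adjusted p 0.0092) and by −0.67 ± 0.26 with A_55_P2157250 (adjusted p 0.037). This last call was lost without Tat−/Meth replicate 1 or 5 or Tat+/Meth replicate 1, 2 or 4 (adjusted p up to 0.12), and that of Serpina3n without Tat−/Meth replicate 1 or Tat+/Meth replicate 1, 2 or 4 (adjusted p up to 0.095). This comparison shares the Tat−/Meth arrays, and with them slide 1, with the comparison of Meth and saline in Tat− mice.

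The interaction asks directly whether Meth had a different effect with Tat than without it. It passed for 3 of the 10 genes, beside 35.4% of all genes. Subtracting the Meth difference of the Tat− mice from that of the Tat+ mice left −0.88 ± 0.13 for Gja1 (adjusted p 4.28e-05), −0.36 ± 0.11 for S100b (adjusted p 0.019) and 0.31 ± 0.11 for Aldoc (adjusted p 0.041). The call for Aldoc was the least firm: it held without 6 of the 20 arrays in turn and not without the other 14, and with quantile normalization its interaction was 0.02 (adjusted p 0.87). Aqp4 probe A_55_P2000369 passed as well, at −0.61 ± 0.14, and the other Aqp4 probe did not, at −0.14 ± 0.15, so that 4 of the 13 probes passed beside 37% of all probes. For Gfap the interaction was −0.25 ± 0.31, −0.67 ± 0.34 and −0.75 ± 0.37 with the 3 probes, and none passed, so that a difference in the effect of Meth on Gfap was not shown. Serpina3n, at −0.39 ± 0.30, and Lcn2, at −0.67 ± 0.52, did not pass either. Among the other lists the interaction passed for Iigp1 (1.89 ± 0.21), Mt3 (−1.21 ± 0.15) and Kcnj10 (−0.49 ± 0.14), among others. Of 15 genes of reactivity signalling, 2 passed with a positive interaction, Nfkb1 (0.66 ± 0.12) and Tgfbr1 (0.24 ± 0.09). A negative one passed for 3, Tgfbr2 (−0.50 ± 0.13), Il6st (−0.49 ± 0.10) and Stat3 (−0.45 ± 0.17). Of the 28 further astrocyte genes 1 passed with a positive and 7 with a negative interaction. Both counts are read beside the 35.4% of all genes. Since each interaction contains the Tat−/Meth arrays, it too cannot be told apart from slide 1.

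The genes also varied from mouse to mouse inside each group and slide. When the mean of each group on each slide was removed, the brightest Gfap probe was most like Gtf2ird1 (Pearson r 0.86 over 20 arrays), Btbd11 (0.85), Slc25a18 (0.85), Igsf1 (0.85) and Chrac1 (0.83) among 15053 genes. Of the other 9 astrocyte genes, Serpina3n stood closest, at rank 10 of 15053, with r of 0.78 and Spearman's rho of 0.75. A permutation of arrays within group and slide gave p of 0.00056 for r and 0.0004 for rho, and adjusted p of 0.0084 and 0.0060 over the 15 relations computed. Without the 2 arrays farthest from the median of Gfap, r was 0.66. Within slide 2 it was 0.78 (8 arrays, permutation p 0.091) and within slide 3 it was 0.72 (7 arrays, permutation p 0.037), and for the 5 arrays of slide 1 no separate value is given. The 8 remaining astrocyte genes had r of −0.36 to 0.30 with Gfap, and none of these passed. Aqp4, Gja1 and Sox9, in particular, did not follow Gfap, at 0.30, 0.11 and 0.17.

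**Figure D5:**
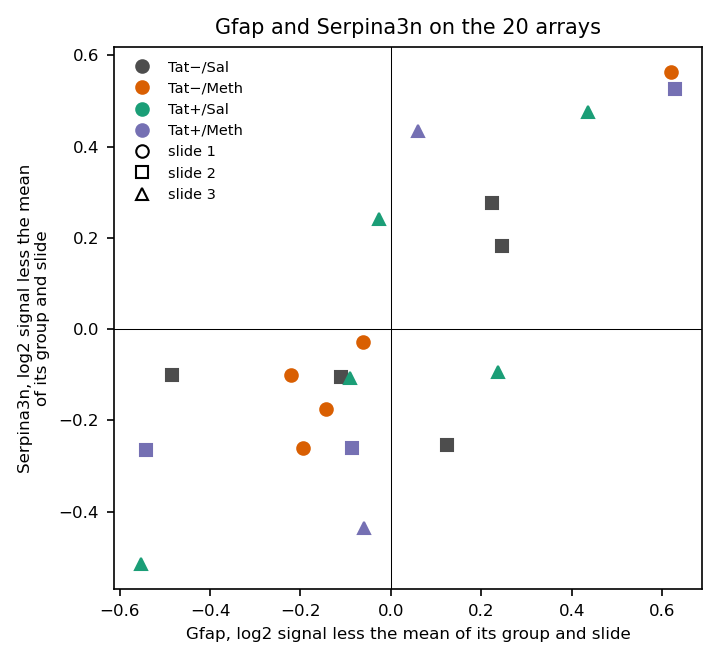
Log2 signal of Serpina3n (vertical axis) against that of the brightest Gfap probe (horizontal axis) on the 20 arrays, each less the mean of its group on its slide. Colour gives the group and shape the slide, and the 2 points at the upper right are Tat−/Meth replicate 1 and Tat+/Meth replicate 3 (r 0.78 over all points, 0.66 without the 2 farthest on the Gfap axis).

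The mean of 9 ependymal and choroid plexus markers also went with Gfap, at r of 0.60 (rho 0.63), with an unadjusted permutation p of 0.022 that became 0.16 over the 15 relations. The means of the oligodendrocyte, microglial, vessel, cortical and striatal markers had r of −0.21 to 0.25. The part of ependyma in the shared variation of Gfap and Serpina3n was not tested. Tat−/Meth replicate 1 had the highest Gfap of its group with 2 of the 3 probes and the highest Serpina3n of all 20 arrays, at 7.96.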

How the data were processed

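Brain RNA of 20 mice was hybridised to 20 one-colour Agilent arrays of design 028005, 1 mouse per array, and replicates are separate mice. The deposited scanner files hold processed signal intensity made by the authors with Feature Extraction 10.7.3.1, in which background is subtracted and spatial trends are removed but arrays are not scaled to each other. The labels name Cy3 and the methods Cy5 with another scanner. The deposited value table, also intensity, equals the background-subtracted signal plus a constant for each array, and served as an alternative.

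Spots called outliers, 4278 over all 20 arrays together, were left out, as were the 3671 control spots of each array. Signals were taken to log2, averaged over the spots of a probe, and scaled so that the 75th percentile was the same on every array. Only in the alternative from the deposited value table were values first raised to at least 1. Probes with values on 3 or more arrays in each group and a mean of at least 6 in 1 or more groups were tested (31516) with limma 3.58.1 in R 4.3.3. The model had 1 mean per group over all 20 arrays, and p-values were adjusted by Benjamini-Hochberg over all probes tested. A gene was read by its brightest probe over all arrays, 15102 genes in all. Probes were named through their RefSeq accessions, which gave 27656 probes a symbol. Relations with Gfap were tested by 100000 permutations within group and slide (scipy 1.17.1). On data simulated for Tat+/Sal against Tat−/Sal with 200 of 31516 probes changed, 83% of changes of 1 on the log2 scale and 97% of changes of 2 were recovered, and 7 unchanged probes were called. The simulated noise was independent between probes and held no slide effect, although the real groups lay on different slides. Changes smaller than 1 were not simulated.

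The genes and lists were chosen with earlier results of these data known, and 1 gene of the end-foot list is not reported here, so counts and medians of that list do not cover it. Genes named from the lists were drawn from up to 3 per direction with the largest change past the test. Their probe had to be well above background on every array of 1 or more of the groups compared. Where none passed, they were drawn from up to 2 with the smallest p. Not every gene that met this rule is named, and markers of other cells are given as counts only. Alternatives changed the scaling, background correction, filter, probe choice, slide and replicate blocks, samples and test. Precision is limited by 5 arrays per group. Same-numbered replicates did not vary together (mean correlation 0.00028 to 0.11, with values below 0 for every number), so replicate numbers were not used as pairs.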

Additional observations from a re-analysis of the deposited data

Results flagged for a closer look

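Single arrays stood apart from the other 4 of their group by Dixon's test in 6 of 52 tests of a probe in a group. Chance gives about 1 in 20, but the tests were not independent. The Gfap probes, and Gfap with Serpina3n, varied together, so 1 mouse can give several flags. The flag for Aldoc lay at the limit of the test (statistic 0.71, limit 0.71). Of these, 4 fell on 1 mouse, Tat−/Meth replicate 1. It read 11.87 for Gfap with probe A_52_P52303 (others 11.03 to 11.19), 11.15 with probe A_55_P2157250 (others 10.05 to 10.33), 7.96 for Serpina3n (others 7.14 to 7.37) and 18.03 for Aldoc (others 17.72 to 17.81). Without this mouse, Gfap probe A_55_P2157250, Serpina3n and Aldoc still passed the test between Tat−/Meth and Tat−/Sal. Gja1 in Tat+/Meth replicate 4 read 10.50 beside 10.14 to 10.17 in the others, and Sox9 in Tat−/Sal replicate 3 read 10.54 beside 11.05 to 11.13.

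The effect of Meth differed between Tat+ and Tat− mice by the interaction in limma for Gja1 (−0.88, adjusted p 4.28e-05), Aqp4 probe A_55_P2000369 (−0.61, adjusted p 0.00285), S100b (−0.36, adjusted p 0.0191) and Aldoc (0.31, adjusted p 0.0413). Slide 1 cannot be told apart from Tat−/Meth in any of them.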

How the results depend on the processing

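Meth against saline in Tat− mice gave 6 of 10 astrocyte genes past the test. The count was 0 with a change above 2-fold required and 0 at an adjusted p under 0.01 with 3-fold, 3 with quantile normalization, 3 with median scaling, 2 without scaling, 8 with the mean over a gene's probes, and 5 to 7 without each array in turn. Aldh1l1 lost its call without Tat−/Meth replicate 1 or 4 or Tat−/Sal replicate 1 or 2, and Aqp4 gained one without Tat−/Meth replicate 2. For Tat+/Meth against Tat−/Meth the count was 7, and it was 0 and 0 with the stricter thresholds, 2 without scaling, and 6 to 7 without each array. The interaction count was 3, and it was 0 and 0 with the stricter thresholds, 1 with median scaling, 1 without scaling, 5 with slide as a random block and 2 to 4 without each array. The random block had an estimated correlation within slides of −0.059, and it does not separate slide 1 from Tat−/Meth. For Tat+/Meth against Tat−/Sal, the methods' t-test without adjustment gave 1. In the other comparisons the count was 0 in every fit, 0 to 0 without each array. Without scaling, signs of differences past the test turned between Tat−/Meth and Tat−/Sal for Aldh1l1 (−0.23) and S100b (−0.17), between Tat+/Meth and Tat−/Meth for Aqp4 probe A_55_P2031939 (0.0110), Aldh1l1 (0.0521) and S100b (0.0076), and in the interaction of S100b (0.13). Leaving out the scaling moves all probes of an array by the same amount, so small differences of the opposite sign to the shift turn with it. With the replicate number as a block the counts were 6, 7 and 3 in these comparisons and 0 in the other 3, but in the interaction Aldoc lost its call (adjusted p 0.0662) and Sox9 gained one (0.0453). Slide as a fixed block could not be fitted where Tat−/Meth enters. Probe Gfap A_55_P2157245 lies near background, which limits its precision.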
